A study of Mus musculus with 8 samples.

Results

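Notch receptors and ligands, the Notch target Hes1 and 4 transcription factors of the intestinal secretory lineages were examined in gut epithelium of lactating mice with and without epithelial RANK. The 10 genes were Notch1, Notch2, Jag1, Dll1, Dll4, Hes1, Atoh1, Spdef, Gfi1 and Neurog3, taken by symbol from a table of 54532 genes. All 10 were found with counts above 0, and 7 of them, all but Notch2, Dll4 and Neurog3, had enough counts to enter the test, which covered 9855 genes. Intestinal epithelial cells came from mice at lactation day 5, from 4 WT and 4 Rank-knockout animals, with 1 library per animal. Rank, whose gene symbol is Tnfrsf11a, encodes a receptor of the tumour necrosis factor receptor family that signals to NF-κB.

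In Rank-knockout mice, floxed Rank was deleted by a Cre recombinase under the Villin1 promoter, which is active along the gut epithelium, so that other tissues kept the gene. Both genotypes were on a C57BL/6J background, and the dams were littermates mated to C57BL/6J males. The sources used here do not give the Cre status or floxed alleles of these WT animals, nor the stretch of intestine sampled, and for age they give only a broad range for the study's mice, not that of these dams. Libraries were made by 3′ mRNA sequencing, in which a polyadenylated transcript yields a read from its 3′ end whatever its length. On that basis levels are set side by side between genes, though their comparability was not tested.

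As background, Notch is a receptor on one cell that is cut when a Delta-like or Jagged ligand on a neighbouring cell binds it. The freed intracellular part enters the nucleus, joins the DNA-binding protein RBPJ and switches on repressors such as Hes1. In intestinal crypts Hes1 represses Atoh1. Cells with active Notch remain stem or absorptive cells, and cells that escape it express Atoh1 and become goblet, Paneth, enteroendocrine or tuft cells. Downstream of Atoh1, Spdef acts in goblet and Paneth cells, Gfi1 holds back the endocrine programme, and Neurog3 starts it.

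Promoter sequence of these genes is shown first, since 3 kinds of factor in this pathway read known short motifs. RefSeq windows on GRCm38.p6, from 250 bases before to 50 bases after a transcription start, were present for 9 of the 10 genes, as 11 windows. Hes1 had none. Both strands were searched for TGGGAA, the core of the RBPJ site, for CACNAG, the N box bound by HES1, and for CAGCTG, an E box of the type bound by ATOH1 and related proteins. The N box was present in windows of 5 of the genes, Notch1, Notch2, Dll1, Dll4 and Atoh1, and in 42.5% of all 32851 mouse windows. The E box was present for 3, Jag1, Dll1 and Neurog3, and in 16.3% of all windows. The RBPJ core was present for 1, Spdef, and in 25.6% of all windows. A gene was counted when any of its windows matched, whereas the shares are of single windows, so the units differ. These matches are letters in a window and were not tested for binding. The 60 bases around a match are given for the receptors Notch1 and Notch2 and the ligand Dll4, as N box examples, and for Neurog3, as the E box example. Capitals mark the match, all are written 5′ to 3′ on the strand of the gene, and none lies in an annotated exon or overlaps another of these motifs. The RefSeq start used for Notch1 lies inside the gene interval given for it below, so its stretch is not upstream of that interval.
Notch1, chr2:26503898-26503957, minus strand, match at -108 from the start: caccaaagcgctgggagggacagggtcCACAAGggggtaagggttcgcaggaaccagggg
Notch2, chr3:98013288-98013347, plus strand, match on the opposite strand at -247: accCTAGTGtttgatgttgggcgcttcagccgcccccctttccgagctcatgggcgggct
Dll4, chr2:119325682-119325741, plus strand, match at -75: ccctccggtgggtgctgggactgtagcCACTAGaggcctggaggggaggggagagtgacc
Neurog3, chr10:62132898-62132957, plus strand, match at -165: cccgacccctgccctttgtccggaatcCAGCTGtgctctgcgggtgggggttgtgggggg

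Total counts per library ran from 1530781 to 4335653 in WT and from 2103716 to 4321154 in Rank-knockout, and WT replicate 2 was the deepest WT library. WT replicate 2 fell below 0.5 of the lowest other WT value in 2.64% of tested genes, against 0.54% to 1.61% for the other WT libraries. Tnfrsf11a itself was counted in every library, at 41.7 to 77.4 CPM (depth-scaled counts) in WT and 27.2 to 47.2 in Rank-knockout. It was lower on average, by a log2 difference of -0.67 (SE 0.22; edgeR adjusted p = 0.032), and the genotypes overlapped. That call held in 11 of 17 alternatives and was lost with both library-total scalings and when replicate 1 or 4 of WT or replicate 1 or 3 of Rank-knockout was left out. Reads from the 3′ end need not come from the deleted part, so this does not check the deletion. With edgeR's quasi-likelihood test at an adjusted p under 0.05, 1555 genes were higher in Rank-knockout (15.8% of those tested) and 1438 lower (14.6%), or 30.4% in either direction. With library totals in place of TMM scaling the calls were 2566 and 859, and with the 50 most abundant genes left out of the library size 2164 and 1016, and those scalings moved the all-gene median of the log2 fold change by 0.20 and 0.13. Directions are relative to the TMM scale.

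Of the 7 Notch pathway and secretory fate genes that were tested, 2 were higher in Rank-knockout, Hes1 and Notch1, beside 15.8% of all tested genes, and 30.4% in either direction. None was lower by edgeR, also at an unadjusted p under 0.05, and DESeq2 and limma-voom likewise called 2 higher and 0 lower. All Rank-knockout values lay above all WT values for those same genes, Hes1 and Notch1, which was so for 14.4% of all tested genes. In bulk epithelium, a larger share of cells expressing a gene and more RNA per cell cannot be told apart. Levels are counts scaled to library size (CPM) with TMM factors, as mean ± SD with n = 4 per genotype, and log2 fold changes are positive where Rank-knockout was higher.

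**Figure D1:**
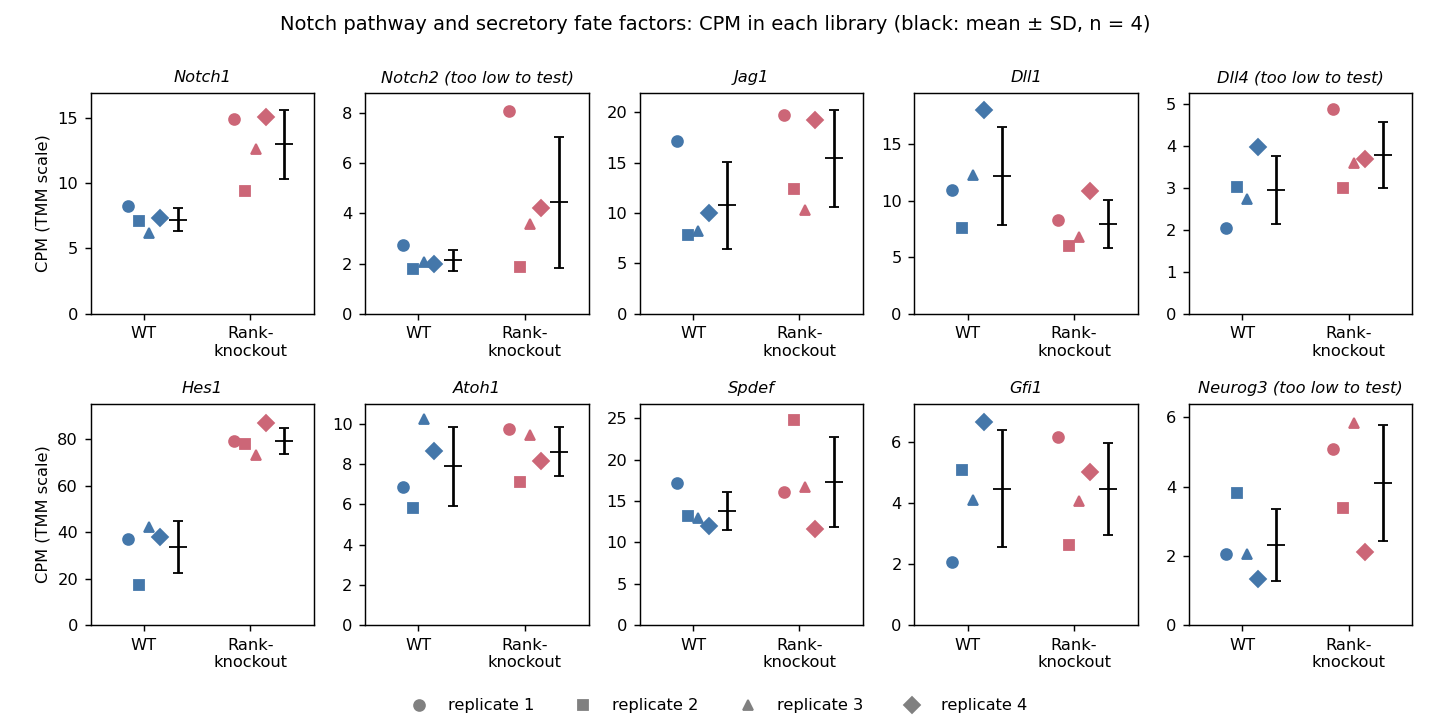
Each panel plots 1 gene, with its CPM on the vertical axis and the genotypes on the horizontal axis; points are libraries, with shapes for replicate numbers, and black bars are the mean ± SD of 4 libraries. The Rank-knockout points lie wholly above the WT points only for Notch1 and Hes1, and the other 8 genes overlap.

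The Notch target Hes1 gave the largest change among the tested members. Hes1 (ENSMUSG00000022528; GRCm38 chromosome 16, 30064384 to 30067796, plus strand) encodes the basic helix-loop-helix repressor that carries much of the Notch signal in crypts. Its counts were 54, 68, 62 and 57 in WT replicates 1 to 4 and 372, 207, 163 and 330 in Rank-knockout replicates 1 to 4. On the CPM scale these were 37.0, 17.2, 42.3 and 37.9 in WT and 79.0, 77.7, 73.3 and 87.0 in Rank-knockout. The Rank-knockout libraries were close together and all above WT, and WT replicate 2 was below the other WT libraries. The mean level went from 33.6 ± 11.2 to 79.2 ± 5.72 CPM, a ratio of 2.36, and the log2 fold change was 1.29 (SE 0.22; 95% interval 0.81 to 1.77; edgeR adjusted p = 0.0009). Without WT replicate 2, the low library, it was 1.01, and the call was kept in each of the 17 alternatives run, with an adjusted p of at most 0.0034 by the tool used (edgeR, DESeq2 or limma-voom).

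The receptor Notch1 was also higher. Notch1 (ENSMUSG00000026923; chromosome 2, 26457903 to 26516663, minus strand), the receptor that acts together with Notch2 in crypt cells, had 12, 28, 9 and 11 counts in WT and 70, 25, 28 and 57 in Rank-knockout. The CPM values were 8.22, 7.10, 6.15 and 7.32 in WT and 14.9, 9.38, 12.6 and 15.0 in Rank-knockout. The genotypes did not overlap, with Rank-knockout replicate 2 nearest to WT. The mean level rose from 7.2 ± 0.85 to 13.0 ± 2.63 CPM, with a log2 fold change of 0.87 (SE 0.26; 95% interval 0.32 to 1.41; edgeR adjusted p = 0.018). It was past the threshold in 16 of 17 alternatives and lost it without Rank-knockout replicate 1, where it was 0.79 (edgeR adjusted p = 0.054). An annotated microRNA gene lies inside Notch1 on the same strand, and 2 further genes overlap it on the opposite strand, which sense-strand counting keeps apart.

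Notch2 (ENSMUSG00000027878; chromosome 3, 98013527 to 98150361, plus strand), the partner receptor, was too low for the test. The annotated genes Gm42819 and Gm42820 overlap it on the same strand, where sense-strand counting does not keep reads apart. Their effect on the Notch2 counts was not tested. It had 4, 7, 3 and 3 counts in WT and 38, 5, 8 and 16 in Rank-knockout, or 2.74, 1.77, 2.05 and 2.0 CPM against 8.07, 1.88, 3.60 and 4.22 CPM. Rank-knockout replicate 2 lay within the WT range and the other Rank-knockout libraries lay above it. In the edgeR fit without a filter, in which 15.2% of 20768 genes were called, its log2 fold change was 1.20 (SE 0.49; 95% interval 0.24 to 2.15; edgeR adjusted p = 0.080). That value passed the threshold in 3 of 14 alternatives, at 1.43 without Rank-knockout replicate 2 (edgeR adjusted p = 0.039), at 1.37 with library totals (0.032) and at 1.30 with library sizes that leave out the 50 most abundant genes (0.049). It was lowest, at 0.68, without Rank-knockout replicate 1 (edgeR adjusted p = 0.54), which held 38 of the 67 Rank-knockout counts. The remaining receptors were scarcely counted. Notch3 had 0 counts in all 8 libraries. By counting error alone, this allows up to 0.33 CPM over the summed WT libraries and 0.24 CPM over the Rank-knockout ones. Those limits use total counts without TMM factors, unlike the other CPM values. Notch4, known mainly from endothelium, had 14 counts summed over WT and 45 summed over Rank-knockout, at mean levels of 1.72 and 3.39 CPM.

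Of the 3 ligands, Jag1 was higher on average and Dll1 lower, and neither passed the test. Jag1 (ENSMUSG00000027276; chromosome 2, 137081456 to 137116644, minus strand), a Jagged-type ligand, had 25, 31, 12 and 15 counts in WT and 93, 33, 23 and 73 in Rank-knockout. Its CPM values were 17.1, 7.86, 8.20 and 9.98 in WT and 19.7, 12.4, 10.3 and 19.2 in Rank-knockout. WT replicate 1 stood within the Rank-knockout range, and the other WT libraries were below it. The log2 fold change was 0.60 (SE 0.30; 95% interval -0.03 to 1.23; edgeR adjusted p = 0.14). Without WT replicate 1 it was 0.85 and just past the threshold (edgeR adjusted p = 0.049), the only 1 of 17 alternatives in which it was called.

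Dll1 (ENSMUSG00000014773; chromosome 17, 15367354 to 15376872, minus strand) and Dll4 (ENSMUSG00000027314; chromosome 2, 119325784 to 119335962, plus strand) are the Delta-like ligands that secretory cells and their progenitors present to neighbours in crypts. Dll1 had 16, 30, 18 and 27 counts in WT and 39, 16, 15 and 41 in Rank-knockout, or 11, 7.60, 12.3 and 18 CPM against 8.28, 6.0, 6.74 and 10.8 CPM. The ranges overlapped, and WT replicate 4 was the highest library. Its log2 fold change was -0.53 (SE 0.30; 95% interval -1.17 to 0.12; edgeR adjusted p = 0.20), and it kept its sign at -0.76 to -0.31 in the 17 alternatives without passing in any. Dll4 was too low to test, with 3, 12, 4 and 6 counts in WT and 23, 8, 8 and 14 in Rank-knockout. Its levels of 2.06, 3.04, 2.73 and 3.99 CPM in WT against 4.88, 3.0, 3.60 and 3.69 CPM in Rank-knockout overlapped, and the fit without a filter gave a log2 fold change of 0.41 (95% interval -0.51 to 1.33; edgeR adjusted p = 0.58). The ligands Jag2 and Dll3 had 4 and 7 counts summed over WT and 9 and 11 summed over Rank-knockout. Scaled to library size, mean Jag2 was 0.36 CPM in WT and 0.76 in Rank-knockout, and mean Dll3 0.44 and 0.62.

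The secretory fate factors gave no call. Atoh1 (ENSMUSG00000073043; chromosome 6, 64729125 to 64731245, plus strand), the factor that commits crypt cells to the secretory lineages, had 10, 23, 15 and 13 counts in WT and 46, 19, 21 and 31 in Rank-knockout. These were 6.85, 5.83, 10.2 and 8.65 CPM in WT against 9.76, 7.13, 9.44 and 8.17 CPM in Rank-knockout. The Rank-knockout range lay inside the WT range. The log2 fold change was 0.19 (SE 0.28; 95% interval -0.40 to 0.77; edgeR adjusted p = 0.65). The log2 fold change of Hes1 lay above that interval.

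Spdef (ENSMUSG00000024215; chromosome 17, 27714352 to 27728955, minus strand), an ETS-domain factor of goblet and Paneth cell maturation, had 25, 52, 19 and 18 counts in WT and 76, 66, 37 and 44 in Rank-knockout. In CPM it was 17.1, 13.2, 13.0 and 12.0 in WT and 16.1, 24.8, 16.6 and 11.6 in Rank-knockout. Rank-knockout replicate 2 was the highest library and Rank-knockout replicate 4 the lowest of all. Its log2 fold change was 0.31 (SE 0.25; 95% interval -0.22 to 0.85; edgeR adjusted p = 0.37), and 0.10 without Rank-knockout replicate 2.

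Gfi1 (ENSMUSG00000029275; chromosome 5, 107716657 to 107726036, minus strand), a zinc-finger repressor that acts below Atoh1, was the lowest tested member. It had 3, 20, 6 and 10 counts in WT and 29, 7, 9 and 19 in Rank-knockout, at 4.47 ± 1.92 and 4.46 ± 1.5 CPM. The log2 fold change was 0.01 (SE 0.38; 95% interval -0.79 to 0.82; edgeR adjusted p = 0.98), and its sign turned in 5 of 13 alternatives. Neurog3 (ENSMUSG00000044312; chromosome 10, 62133090 to 62134763, plus strand), the factor that starts the enteroendocrine programme, was too low to test, with 3, 15, 3 and 2 counts in WT and 24, 9, 13 and 8 in Rank-knockout. Its 2.06, 3.80, 2.05 and 1.33 CPM in WT against 5.09, 3.38, 5.85 and 2.11 CPM in Rank-knockout overlapped. The fit without a filter gave a log2 fold change of 0.67 (95% interval -0.27 to 1.6; edgeR adjusted p = 0.43). WT replicate 2 held 15 of the 23 WT counts, and without it the value was 1.18 (edgeR adjusted p = 0.20), the highest of 14 alternatives, of which the lowest was 0.45.

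**Figure D2:**
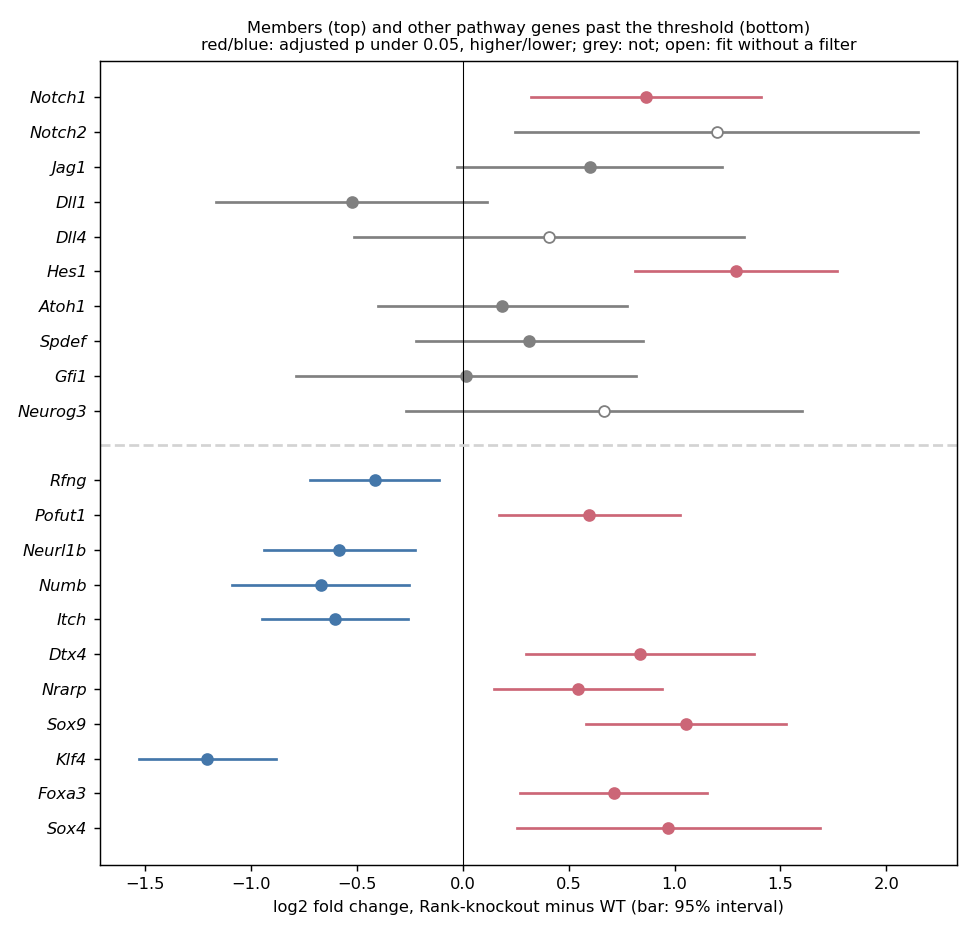
The horizontal axis is the log2 fold change, Rank-knockout minus WT, with its 95% interval as a bar; the 10 members are above the dashed line and other pathway and factor genes past the threshold, those named in the text, below it. Red and blue mark an edgeR adjusted p under 0.05 with a higher or lower level, grey marks the rest, and open points come from the fit without a filter. Among members, Hes1 (1.29) and Notch1 (0.87) are red and none is blue.

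Set side by side, the members spanned a wide range of levels. Hes1 was the most abundant in both genotypes, at 33.6 CPM in WT against 79.2 CPM in Rank-knockout, and was above 66.3% of tested genes by its mean over all libraries. Spdef was next, at 13.8 and 17.3 CPM. In WT the order then ran through Dll1, Jag1, Atoh1, Notch1, Gfi1, Dll4, Neurog3 and Notch2, and in Rank-knockout through Jag1, Notch1, Atoh1, Dll1, Gfi1, Notch2, Neurog3 and Dll4. In each genotype every gene in that order overlapped its neighbour except Hes1 and Spdef, whose ranges were 17.2 to 42.3 and 12.0 to 17.1 CPM in WT against 73.3 to 87.0 and 11.6 to 24.8 CPM in Rank-knockout. Notch1 stood above 19.2% and Gfi1 above 1.85% of tested genes.

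**Figure D3:**
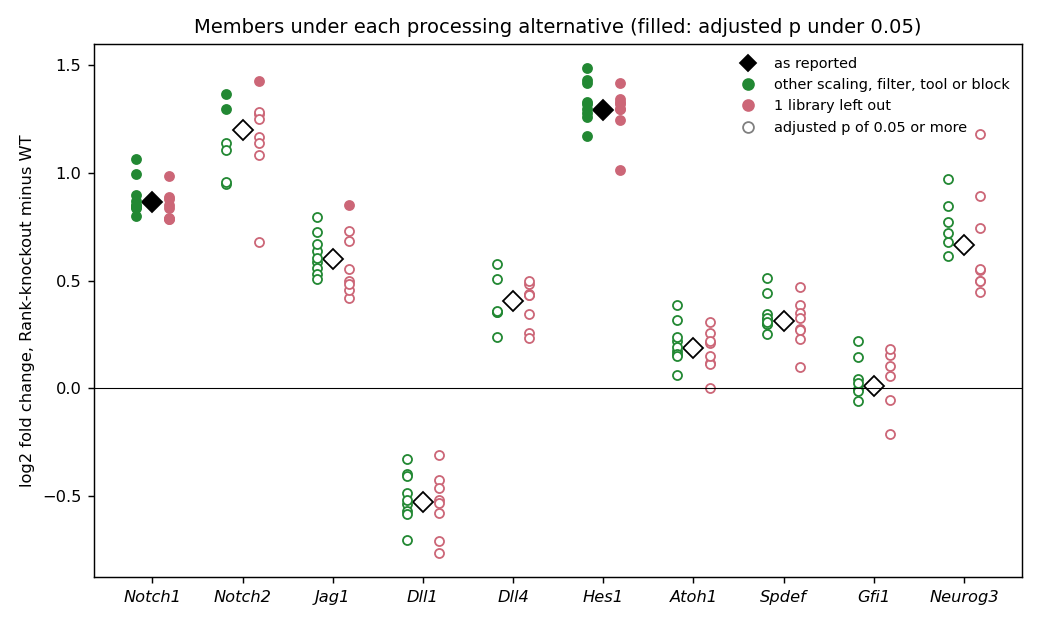
For each member, the vertical axis gives the log2 fold change, Rank-knockout minus WT; black diamonds are the reported values, green circles other scalings, filters, tools or the replicate block, and red circles fits with 1 library left out. Filled symbols have an adjusted p under 0.05: Hes1 is filled throughout, Notch1 is open once, and Gfi1 lies on both sides of 0.

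The wider pathway was then read from lists of receptors, ligands, sugar-adding enzymes, ligand endocytosis, cleavage, nuclear complex, modulators and targets. Of 42 such genes beside the members, 25 were tested, 3 were higher and 5 lower, with a median log2 fold change of -0.05 beside 0.02 for all tested genes. These shares stand beside 15.8% higher and 14.6% lower in all genes. When replicate 3 or 4 of WT or replicate 3 of Rank-knockout was left out, the higher calls among these genes and the secretory factors together went from 6 to 1, and with replicate 1 of either genotype left out to 3.

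The higher genes were Dtx4, Pofut1 and Nrarp. Dtx4, of the Deltex family of Notch-binding ubiquitin ligases, went from 50.7 ± 12.5 to 92.0 ± 32.4 CPM with a log2 difference of 0.84 (SE 0.25; edgeR adjusted p = 0.022). Pofut1, which adds the O-fucose that Notch needs to bind its ligands, went from 24.0 ± 3.24 to 36.8 ± 8.14 CPM, at 0.60 (SE 0.20; edgeR adjusted p = 0.035). Nrarp, a Notch-induced protein that feeds back on the nuclear complex, went from 34.4 ± 6.42 to 49.8 ± 8.35 CPM, at 0.54 (SE 0.19; edgeR adjusted p = 0.037). The genotypes did not overlap for Pofut1 and Nrarp and overlapped for Dtx4. Dtx4 was called in 12 and Pofut1 and Nrarp each in 10 of 17 alternatives, and all 3 lost the call when replicate 3 or 4 of WT or replicate 3 of Rank-knockout was left out. Dtx4 also lost it without replicate 1 of either genotype, Pofut1 without replicate 1 of WT or 2 of Rank-knockout, and Nrarp without replicate 2 of either genotype. With DESeq2, the tool the study used, Pofut1 and Nrarp were not called (adjusted p = 0.056 and 0.057), nor was Pofut1 with limma-voom (0.056) or Nrarp after thinning to the shallowest library (edgeR adjusted p = 0.079).

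The lower genes included Itch, Neurl1b, Numb and Rfng. Numb, an adaptor that restrains Notch at the membrane, went from 45.8 ± 5.50 to 28.7 ± 6.59 CPM, with a log2 difference of -0.67 (SE 0.20; edgeR adjusted p = 0.017). Itch, a ubiquitin ligase that targets Notch, went from 75.0 ± 11.1 to 48.7 ± 6.53 CPM, at -0.60 (SE 0.16; edgeR adjusted p = 0.011). Neurl1b, of the Neuralized family that drives ligand endocytosis, went from 497 ± 34.7 to 332 ± 87.2 CPM, at -0.58 (SE 0.17; edgeR adjusted p = 0.016). Rfng, a Fringe sugar transferase acting on Notch, went from 103 ± 11.7 to 77.0 ± 7.46 CPM, at -0.42 (SE 0.14; edgeR adjusted p = 0.038). The genotypes did not overlap for any of these 4, beside 14.3% of all tested genes. With library totals each of these 4 calls was lost, and Rfng, the weakest, was called in 9 of 17 alternatives. Rfng also lost it with the 50 most abundant genes omitted from the library size, with no filter, and without WT replicate 4 or any single Rank-knockout library, Neurl1b without replicate 3 of either genotype, and Numb without Rank-knockout replicate 1.

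The nuclear and target components gave no further call. Rbpj, the DNA-binding partner of Notch, was at 18.5 ± 1.49 and 18.1 ± 3.65 CPM (log2 fold change -0.01, SE 0.21; edgeR adjusted p = 0.97). Hes6, a Hes family member outside the repressor group of Hes1, was at 175 ± 26.9 and 193 ± 39.6 CPM (0.13, SE 0.17; edgeR adjusted p = 0.58). Of the other Hes and Hey targets, Hes5 summed to 3 counts over WT and 15 over Rank-knockout, Hes7 to 7 and 16, and Heyl to 1 and 2, while Hey1 and Hey2 were at 0 in all 8 libraries. Mean CPM in WT and Rank-knockout was 0.30 and 1.34 for Hes5, 0.76 and 1.42 for Hes7, and 0.06 and 0.16 for Heyl.

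Among 23 further secretory, enteroendocrine and tuft cell factors, 9 were tested, 3 were higher and 1 lower, with a median log2 fold change of 0.46. Of all tested genes, 15.8% were higher and 14.6% lower, with a median of 0.02. Klf4, a zinc-finger factor of differentiated villus cells that is also needed by goblet cells, had 1502, 1915, 1440 and 1480 CPM in WT against 722, 786, 643 and 593 CPM in Rank-knockout. Its libraries were far apart between genotypes, with a log2 difference of -1.21 (SE 0.15; edgeR adjusted p = 0.00015) and a call in all 17 alternatives. Sox9, a factor of crypt base and Paneth cells, had 121, 106, 69.0 and 87.9 CPM in WT against 208, 191, 277 and 127 CPM in Rank-knockout. All its Rank-knockout libraries were above WT, at 1.06 (SE 0.22; edgeR adjusted p = 0.0031), also called in all 17. Foxa3, a goblet and endocrine cell forkhead factor, at 0.71 (SE 0.21; edgeR adjusted p = 0.018), and Sox4, a factor of secretory progenitors, at 0.97 (SE 0.32; edgeR adjusted p = 0.044), were higher with overlapping libraries. They were called in 12 and 11 of 17 alternatives, and both lost the call when replicate 3 or 4 of WT or replicate 1 or 3 of Rank-knockout was left out, as did Foxa3 without WT replicate 1 and Sox4 without WT replicate 2. Sox4 was also not called by limma-voom (adjusted p = 0.063).

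Products of the secretory cells did not move as one group. Of 7 goblet cell markers, 4 were lower and 2 higher in Rank-knockout, with a median log2 fold change of -0.58. This count, and that of the Paneth list below, stand beside 15.8% higher and 14.6% lower in all tested genes. Zg16, a lectin-like granule protein, went from 10026 ± 1618 to 5348 ± 845 CPM, at -0.91 (SE 0.17; edgeR adjusted p = 0.0012), and Clca1, a secreted mucus protein, from 1566 ± 166 to 982 ± 298 CPM, at -0.67 (SE 0.20; edgeR adjusted p = 0.021). The other lower goblet genes were Fcgbp and Muc2, the main gel-forming mucin, and the higher ones were Agr2, which folds mucins in the endoplasmic reticulum, and Spink4, at 0.85 and 1.03. These 4 genes, and Mmp7 and Ang4 in the next list, were named after their values were seen. With library totals 2 of the goblet genes were lower in place of 4. Of 8 Paneth cell markers, Itln1, Mmp7 and Ang4 were higher and none lower, with a median of 1.17, and the list holds defensins, near-identical genes whose reads may be shared. The most abundant Paneth genes were Itln1, at 1026 ± 270 and 2044 ± 897 CPM (0.99, SE 0.32; edgeR adjusted p = 0.038), and lysozyme Lyz1, at 835 ± 411 and 1936 ± 921 CPM (1.21, SE 0.46; edgeR adjusted p = 0.084). The number of higher Paneth genes was 5 by DESeq2, 1 by limma-voom and 5 with library totals.

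Enteroendocrine and tuft markers gave no call with edgeR. Of 9 tested enteroendocrine genes, 1 was higher and 1 lower at an unadjusted p under 0.05, and none was called by DESeq2 or limma-voom, with 1 higher under library totals, under library sizes without the 50 most abundant genes, or without WT replicate 2. Chgb, a granin of endocrine granules, was at 203 ± 14.7 and 262 ± 57.9 CPM (0.37, SE 0.16; edgeR adjusted p = 0.098), and the hormone gene Gip at 129 ± 11.4 and 108 ± 27.1 CPM (-0.27, SE 0.17; edgeR adjusted p = 0.25). Of 4 tested tuft cell genes, 1 was lower at an unadjusted p under 0.05 and none by DESeq2 or limma-voom, with Dclk1, a kinase that marks tuft cells, at 13.0 ± 2.15 and 12.1 ± 3.28 CPM.

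**Figure D4:**
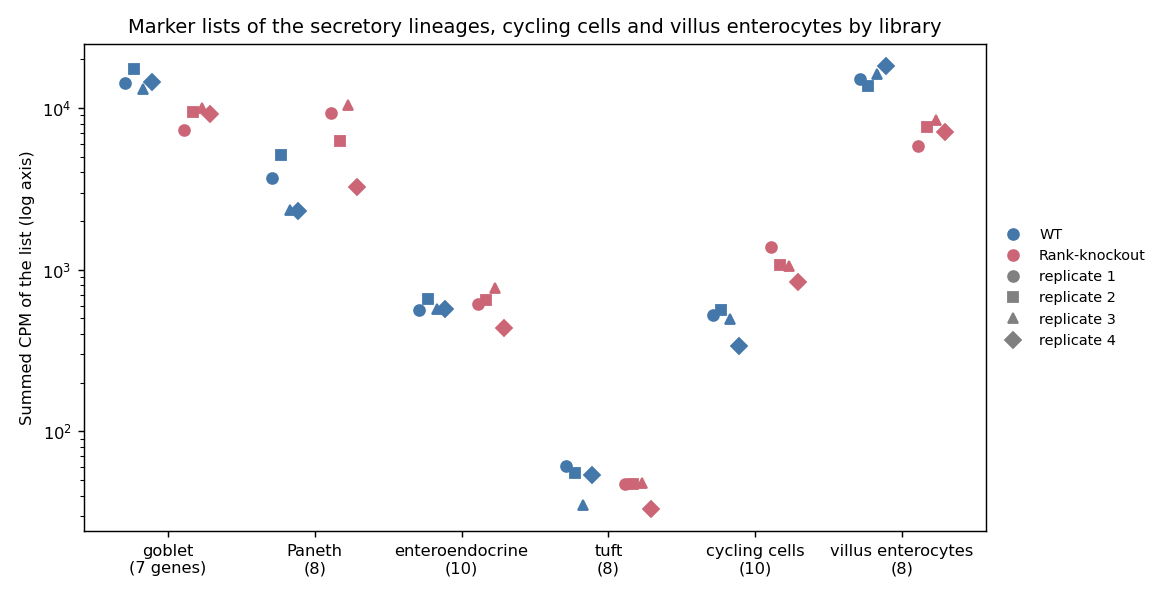
The vertical log axis gives the summed CPM of each marker list, for WT in blue and Rank-knockout in red; points are libraries and shapes are replicate numbers. The cycling list is at 335 to 560 CPM in WT against 836 to 1381 in Rank-knockout, and the villus list is at 13757 to 18169 and 5783 to 8404. The goblet list is at 13084 to 17410 CPM in WT against 7363 to 10073 in Rank-knockout, without overlap. The Paneth, enteroendocrine and tuft lists overlap between genotypes.

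Markers of cycling crypt cells and of villus enterocytes also differed between the genotypes, beside 15.8% higher and 14.6% lower in all tested genes. All 10 cycling genes were higher in Rank-knockout, with a median log2 fold change of 1.22, led in level by Top2a (271 ± 61.5 and 591 ± 127 CPM) and Cdk1 (53.3 ± 16.2 and 127 ± 30.6 CPM), and 9 of 10 were called with RLE size factors, DESeq2 or limma-voom. All 8 villus enterocyte genes were lower, with a median of -1.25, led by Apoa4 (8891 ± 696 and 3975 ± 903 CPM) and Lct (1931 ± 569 and 759 ± 167 CPM), and 6 of 8 were called with library totals. The summed cycling list was 335 to 560 CPM in WT against 836 to 1381 CPM in Rank-knockout, and the summed villus list 13757 to 18169 and 5783 to 8404 CPM, and neither overlapped. Hes1, Notch1 and Sox9 rose, and Klf4 fell, in the same libraries. The part of these shifts in the Notch and secretory factor changes was not tested.

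Markers of other cell types that can carry Notch genes were read in the same libraries. The 8 endothelial genes, the cell type in which Notch4 and Dll4 are best known, summed to 0.68 to 11 CPM in WT against 1.80 to 7.88 CPM in Rank-knockout, with none high enough to test and Cdh5 at 0 throughout. The 10 stromal and muscle genes summed to 9.98 to 18.2 and 5.85 to 19.9 CPM, with only Vim tested (-0.10, SE 0.33; edgeR adjusted p = 0.84) and Lum at 0. The 8 T cell genes summed to 29.4 to 59.2 and 24.0 to 46.9 CPM, and 0 of the 5 tested were called by edgeR, at an unadjusted p under 0.05, by DESeq2 or by limma-voom. Ptprc was at 9.80 ± 4.44 and 6.15 ± 2.81 CPM and Lck at 9.22 ± 3.16 and 6.75 ± 1.87 CPM, levels like those of Notch1 and Atoh1, and the part of T cells in the members' values was not tested. The 6 B and plasma cell genes summed to 6.83 to 10.6 and 0.45 to 4.88 CPM, without overlap and with Cd79a at 0. None of them was high enough to test with edgeR, and DESeq2 called 1 of them lower. Jchain, the joining chain of secreted antibodies, held most of that sum, at 5.35 ± 1.86 and 1.98 ± 1.06 CPM without overlap (edgeR adjusted p = 0.019 in the fit without a filter), and is named after its values were seen. The 6 myeloid genes summed to 4.78 to 11.6 and 4.22 to 13.2 CPM, with Adgre1 at 0.

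Genes whose levels followed those of a member within genotypes were listed for the Notch gene and the secretory factor with the most counts among the 10 members. After each genotype's mean was subtracted from log2 CPM, the 4 genes most like Hes1 over the 8 libraries were Commd1, Usmg5, Selenof and Kctd5, with Pearson r of 0.998, 0.993, 0.992 and 0.991. Without WT replicate 2, in which Hes1 was low, these were 0.989, 0.963, 0.958 and 0.965. For Spdef the 4 were Atp23, Endov, Exph5 and Rps6kb1, with r of 0.958, 0.941, 0.941 and 0.934. These values describe 8 libraries of unequal depth, were picked as the highest among all tested genes and carry no test.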

How the data were processed

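The authors trimmed the 3′ mRNA-seq reads, dropped those from abundant sequences including the mitochondrial genome, aligned the remainder to GRCm38 and assigned them to genes in the sense direction. The deposited values are raw counts per gene, without mention of molecular identifiers, so PCR copies count as reads. Symbols came from GENCODE M21 (54495 of 54532 identifiers found). The test was edgeR 4.0.16 under R 4.3.3 (filterByExpr, TMM, robust quasi-likelihood F-test on genotype alone, Benjamini-Hochberg adjustment over all tested genes, threshold 0.05), tested on simulated data. It also gave SE and 95% intervals. A floor for 0 is 3 counts, over summed total counts without TMM factors. Alternatives changed the scaling (RLE, totals, or totals that omit the 50 most abundant genes), the filter (none, or mean CPM 5), the tool (DESeq2 1.42.0, or voom in limma 3.58.1), the depth (thinned to the shallowest), the model (replicate block) or the libraries (each omitted). Marker list counts under other settings were added after seeing the data. Members and lists were chosen with earlier results of these data known. Named are all members, other pathway and factor genes past the threshold, untested receptors, ligands and targets, the 2 most abundant tested genes per marker list, and the 4 genes most like Hes1 and Spdef. A few genes selected in this way are not reported here. Rbpj and Hes6 were added after their values were seen. No libraries of a genotype agreed within sampling noise.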

Additional observations from a re-analysis of the deposited data

Results flagged for a closer look

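In sets of 4 libraries, a library was singled out where its gap to the nearest other was large against the range by Dixon's criterion. Among 46 sets examined, 2 were singled out, where chance gives about 1 in 20, or 2.3. Klf4 stood at 1915 CPM in WT replicate 2, against 1440 to 1502 CPM in the other WT libraries. Total counts were 4335653 in WT replicate 2, against 1530781 to 1616024 in the other WT libraries. Klf4 remained lower in Rank-knockout without that library, with a log2 fold change of -1.11 and an edgeR adjusted p of at most 0.0010 over all libraries left out in turn.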

How the results depend on the processing

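Of 157 alternative values of the members, 147 kept their direction and their side of the threshold. Library totals gave 2566 genes higher and 859 lower, and, of other pathway and factor genes, 9 higher in place of 6 and 1 lower in place of 6. With each library left out in turn, 1020 to 1723 genes were higher and 1097 to 1564 lower, members higher were 1 to 3 and lower 0, and other pathway and factor genes higher were 1 to 7 and lower 4 to 6. Gfi1 turned sign, with log2 fold changes of -0.0018 (RLE size factors), -0.014 (DESeq2) and -0.058 (replicate block), and ranged from -0.21 without WT replicate 1 to 0.18 with single libraries left out, turning also at -0.05 without WT replicate 3, and the cause was not tested. Of 204 values of the other pathway and factor genes past the threshold, 45 lost the call and none turned sign. Deviations of same-numbered libraries from their genotype means correlated at 0.05, 0.15, -0.14 and 0.32, so the numbers were not taken to pair the animals. With the replicate block, 1708 genes were higher and 1602 lower, 2 members were higher and 0 lower, and 6 other pathway and factor genes were higher and 6 lower. Gfi1 could be fitted in 13 and the untested members in 14 alternatives. The shallowest library had 1530781 counts, and Notch2, Dll4, Neurog3 and Gfi1 each had 2 to 20 counts per WT library.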
